A study of Homo sapiens with 27 samples.

Results

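MicroRNA (miRNA) signals were compared on 6 arrays of RNA from OCI-AML3, a human acute myeloid leukaemia cell line: 3 arrays of cells given 250 nM POL6326 for 1 h and 3 arrays of cells given 100 ng/mL SDF-1α for 1 h. They were chosen by title from a series of 27 arrays, which also holds both treatments at 2, 4 and 8 h and 3 arrays of untreated cells from 0 h. SDF-1α (CXCL12) is the chemokine that activates the receptor CXCR4, and POL6326 blocks that receptor. Each culture received the antagonist or the ligand, none is labelled as having received both, and no untreated cells were taken at 1 h. Nothing in the labels tells whether replicate arrays stem from separate cultures, so p-values here measure the spread between these arrays, which may be technical. All 774 human miRNA probes were examined, for mature strands, star strands and precursors. A precursor is the hairpin from which the mature strand is cut, and a star marks the strand that is usually the less abundant of the pair. The labels name no clone or pool of the line.

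CXCR4 holds haematopoietic stem cells and leukaemia cells in the bone marrow, where stromal cells secrete SDF-1α, and antagonists release the cells into the blood. A miRNA guides a silencing complex to messenger RNAs, chiefly by pairing through its seed, bases 2 to 8 from its 5′ end. MiRNAs that share a seed can therefore bind overlapping sets of messenger RNAs. The let-7 family, whose member let-7a is named in the title of the series, is known for repressing growth genes such as RAS and MYC.

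The sequences below are printed because the results turn on them, with the seed in capitals, as RefSeq gives them for GRCh38.p14. The array names were matched by hand to the present names of the strands (miR-136* is miR-136-3p, for example). The first set holds the strands of probes that differed between the treatments. For miR-138-1* this was the probe marked Plus/Minus, and the unmarked probe of that strand did not differ.
miR-136*: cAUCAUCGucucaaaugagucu
miR-138-1*: gCUACUUCacaacaccagggcc
miR-34c-3p: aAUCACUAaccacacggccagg
miR-758: uUUGUGACcugguccacuaacc
miR-138: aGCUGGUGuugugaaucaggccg
miR-125b-2*: uCACAAGUcaggcucuugggac
miR-9: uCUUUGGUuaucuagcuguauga
miR-557: gUUUGCACgggugggccuugucu
miR-608: aGGGGUGGuguugggacagcuccgu
miR-126*: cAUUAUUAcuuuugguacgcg
These 10 strands carry 10 different seeds, so no shared seed joins them. Among them, miR-136* (chr14:100884750-100884771) and miR-758 (chr14:101026071-101026092), lie on the plus strand of chromosome 14 in the imprinted DLK1-DIO3 region. MiR-138 and miR-138-1* are the 2 arms of the hairpin of MIR138-1 on the plus strand of chromosome 3 (chr3:44114234-44114256 and chr3:44114274-44114295), and the miR-138 sequence also comes from MIR138-2 (chr16:56858527-56858549). MiR-125b-2* is on the plus strand of chromosome 21 (chr21:16590290-16590311) and miR-557 on the plus strand of chromosome 1 (chr1:168375584-168375606).

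The second set holds the 9 mature strands that share the seed GAGGUAG.
let-7a: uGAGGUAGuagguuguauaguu
let-7b: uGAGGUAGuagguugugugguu
let-7c: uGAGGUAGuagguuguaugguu
let-7d: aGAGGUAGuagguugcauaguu
let-7e: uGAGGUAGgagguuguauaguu
let-7f: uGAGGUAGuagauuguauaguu
let-7g: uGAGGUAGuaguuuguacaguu
let-7i: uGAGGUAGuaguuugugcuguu
miR-98: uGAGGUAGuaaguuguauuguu
Let-7c, let-7e and let-7f differ from let-7a at 1 base, let-7b, let-7d, let-7g and miR-98 at 2 and let-7i at 4. The files do not give the probes' own sequences, so how far a probe also binds a relative could not be examined.

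The third set holds strands past the threshold with relatives of the same seed that were not.
miR-181d: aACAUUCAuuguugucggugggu
miR-181b: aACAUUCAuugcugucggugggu
miR-181c: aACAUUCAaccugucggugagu
miR-19b: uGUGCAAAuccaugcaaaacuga
miR-19a: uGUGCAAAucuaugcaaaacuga
miR-196a: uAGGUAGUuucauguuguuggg
miR-196b: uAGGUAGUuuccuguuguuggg
miR-30c-1*: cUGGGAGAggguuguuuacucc
miR-30c-2*: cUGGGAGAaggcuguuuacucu
MiR-181b differs from miR-181d at 1 base, miR-19a from miR-19b at 1 base and miR-196b from miR-196a at 1 base.

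The values are log2 signals, and the floor of an array is its most frequent value, a low one that many probes share. A probe at or under the floor has no measured level, and the lowest value above the floor was taken as the array's detection limit. The POL6326 arrays had 318, 334 and 327 probes above the floor, against 217, 241 and 210 on the SDF-1α arrays. The detection limits were 5.22, 5.09 and 5.33 on the POL6326 arrays and 7.19, 6.88 and 7.42 on the SDF-1α arrays. The 3 SDF-1α arrays had the highest detection limits and the fewest probes above the floor of the 27 arrays of the series. The difference in number, 104 probes on average, had an exact two-sided permutation p of 0.1, the smallest that 3 arrays against 3 allow. Above 1 common limit of 7.42, the highest of the 27, the POL6326 arrays held 3.67 more probes on average than the SDF-1α arrays (exact permutation p = 0.4). Between 24.85% and 46.54% of the values above the floor on 1 of the 6 arrays recurred on another, to within 1e-06 on the log2 scale, so the deposited arrays draw in part on shared values. How far the authors' normalization, which is unknown, sets the number over a given signal was not tested.

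**Figure D1:**
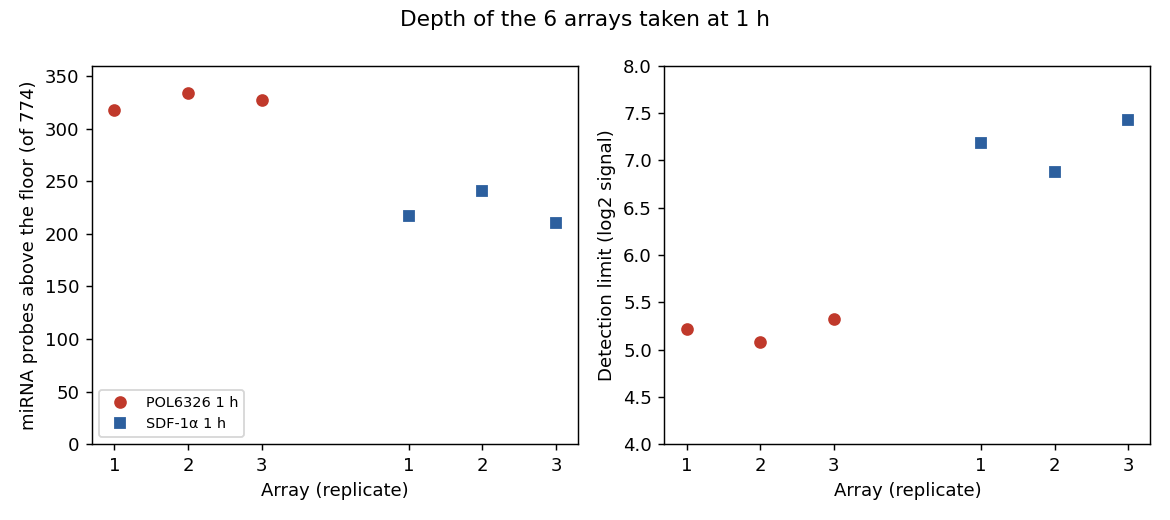
Left, the number of miRNA probes above the floor on each array; right, the detection limit of each array on the log2 scale. Each point is 1 array, POL6326 in red and SDF-1α in blue. The POL6326 arrays (318 to 334 probes, limits 5.09 to 5.33) do not overlap the SDF-1α arrays (210 to 241 probes, limits 6.88 to 7.42).

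By the floor, the probes fell into 4 classes, which hold all 774. On all 6 arrays 182 probes were above the floor, and only these have a measured difference. Another 34 were above the floor on all 3 POL6326 arrays and at it on all 3 SDF-1α arrays, and 0 showed the opposite. The floor held 359 probes on all 6 arrays, and the rest were above it on some arrays of 1 or both groups. Because the classes were set from the same arrays, the share of each class that passed a test is no result.

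Some miRNAs of myeloid and other blood cells were bright in both groups, and others were not seen. MiR-223, a miRNA of granulocytes and monocytes, read 15.12, 15.46 and 15.46 with POL6326 and 15.12 on each of the 3 SDF-1α arrays, among the brightest probes. MiR-155, a miRNA of activated immune cells and of some leukaemias, averaged 11.80 with POL6326 and 11.29 with SDF-1α, and miR-142-5p, of blood cells, averaged 8.43 and 8.69 in the same order. MiR-191, abundant in blood cells, averaged 14.47 with POL6326 and 14.65 with SDF-1α. MiR-142-3p was at the floor on all 6 arrays and miR-181a on 5 of them. Among markers of other tissues, miR-133a (muscle), miR-143 (stroma) and miR-302a, miR-302b, miR-302c and miR-302d (pluripotent cells) were not above the floor on all arrays of either group. Other members of the same lists were above it on all 6 arrays, 3 of 11 muscle, 1 of 14 stromal and endothelial and 4 of 16 pluripotent probes, among them miR-206, miR-214 and miR-371-5p. MiR-122 (liver) averaged 8.29 with POL6326 and 7.93 with SDF-1α, and miR-205 (epithelium) 8.50 with POL6326 and 8.81 with SDF-1α. Signal was thus present for these miRNAs of other tissues in both groups, at levels near those of miR-142-5p. MiR-451 (red cells) was above the floor on all POL6326 arrays and at it on all SDF-1α arrays. In bulk RNA, fewer cells of a type and less RNA per cell cannot be told apart.

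Over all 774 probes, 27 (3.49%) passed an adjusted p of 0.05 (limma, Benjamini-Hochberg over the 774 probes, all 27 arrays in the fit). POL6326 was higher for 24 (3.1%) and lower for 3 (0.388%). Of the 27, 5 were measured on all 6 arrays, 21 were not above the floor on any SDF-1α array and 1 was partly at the floor. By kind, 17 mature probes (3.41%), 6 star probes (4.32%) and 4 precursors (2.92%) passed. With values raised to the common limit, 24 of 274 probes passed (8.76%), 10 higher and 14 lower with POL6326, and 10 of them were among the 27. Of the probes with an unadjusted p under 0.05, 112 were at the floor on all 6 arrays and differ by the height of the floor itself. The count was 12 without SDF-1α array 2 and 11 without SDF-1α array 3, with 9 of the 27 among the calls in each case. The measured calls were then 2, and 3 without POL6326 array 2.

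The groups did not overlap for 57 probes with POL6326 above (7.36% of 774) and for 38 with POL6326 below (4.91%), counting values at the floor as tied. Of the 57, 34 are the probes with only the SDF-1α arrays at the floor. Their lack of overlap follows from how that class was set, so the larger count above is no result. Among the 182 measured probes the groups did not overlap for 19 with POL6326 above and 37 with POL6326 below. The SDF-1α detection limits were the higher ones, so this class could hold low POL6326 values but not equally low SDF-1α values. Its counts by direction and its median are therefore no result on direction either. The measured probes had a median difference near 0, which the authors' scaling of the arrays can itself fix. This median, POL6326 minus SDF-1α, was -0.09 on the log2 scale, 75 were positive and 107 negative, and 129 (70.88%) differed by less than 0.5. The median SD between arrays of a group was 0.25 with POL6326 and 0.23 with SDF-1α. In all, 11 probes differed by at least 1 on the log2 scale, 6 of them higher and 5 lower with POL6326.

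**Figure D2:**
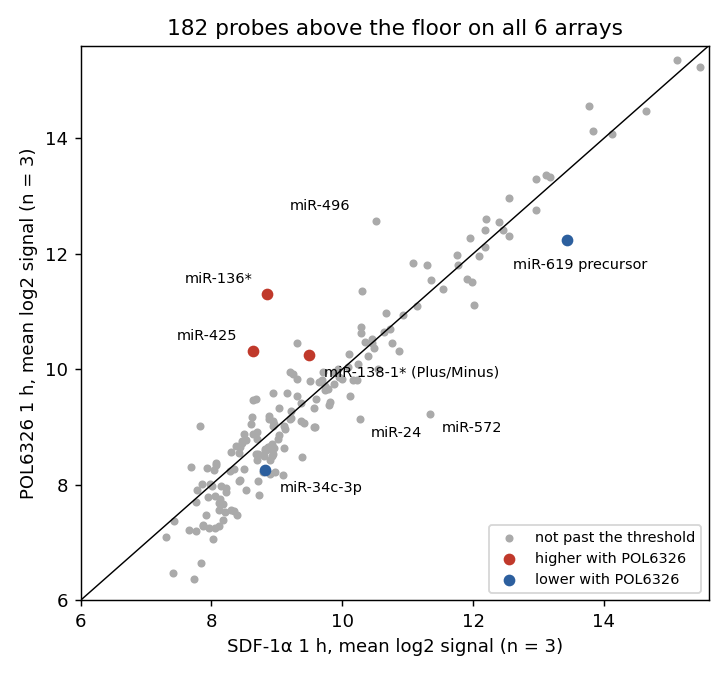
Mean log2 signal of the 182 probes above the floor on all 6 arrays, with SDF-1α on the horizontal and POL6326 on the vertical axis (n = 3 each; the line marks equal values). Most points lie along the line (70.88% differ by less than 0.5); miR-136* and miR-425 lie above it and the miR-619 precursor below it among those past the threshold.

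The strongest measured difference was in miR-136*, the star strand of a miRNA of the DLK1-DIO3 region. It read 10.77, 11.38 and 11.78 on the POL6326 arrays, against 9.88, 8.16 and 8.53 on the SDF-1α arrays. All POL6326 values stood above all SDF-1α values. The difference was 2.45 (SE 0.45, limma adjusted p = 0.00378), a 5.47-fold higher signal. The other strand of the same hairpin, miR-136, averaged 9.16 with POL6326 and 9.22 with SDF-1α, with overlap (difference -0.06, SE 0.25, adjusted p = 0.92).

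MiR-425, which is made from the same transcript as miR-191, read 9.84, 10.26 and 10.87 with POL6326 and 7.95, 9.26 and 8.68 with SDF-1α. The groups did not overlap, and the difference was 1.70 (SE 0.34, limma adjusted p = 0.00828). Its star strand miR-425* was above the floor on all 3 POL6326 arrays (6.73, 7.31 and 7.96) and on 1 SDF-1α array (7.61), and did not pass the threshold. MiR-191 itself differed by -0.17 (SE 0.22, limma adjusted p = 0.749).

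MiR-138 is a miRNA best known from neurons and from tumours, and 4 probes carried its name. The probe for miR-138-1* marked Plus/Minus (a mark that neither labels nor table explain) read 10.04, 10.34 and 10.39 with POL6326 and 9.64, 9.36 and 9.49 with SDF-1α. The groups did not overlap, and the difference was 0.76 (SE 0.17, limma adjusted p = 0.016). The unmarked probe of the same strand read 10.50, 10.46 and 10.43 with POL6326, against 10.27, 10.44 and 10.67 with SDF-1α, and the 2 probes of miR-138-1* disagreed. Its difference was 0.00 (SE 0.11, limma adjusted p = 0.981). The miR-138 probe marked Plus/Minus averaged 12.76 with POL6326 and 12.96 with SDF-1α and did not pass, while the unmarked miR-138 probe, described below, had no SDF-1α array above the floor. The miR-138-1* call was lost without SDF-1α array 2 or 3 and without POL6326 array 2 or 3, with a limma adjusted p of at most 0.0677.

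Both measured falls were moderate. The precursor of miR-619 read 11.48, 12.76 and 12.46 with POL6326 and 13.39, 13.64 and 13.29 with SDF-1α, 2.31-fold lower with POL6326. The groups did not overlap (difference -1.21, SE 0.32, limma adjusted p = 0.0378), and the mature miR-619 was at the floor on all 6 arrays. MiR-34c-3p, an arm of a miRNA that p53 induces, read 8.22, 8.18 and 8.37 with POL6326 and 8.79, 8.88 and 8.79 with SDF-1α. Its groups lay apart with little spread (difference -0.57, SE 0.13, limma adjusted p = 0.0237), and its partner miR-34c-5p was above the floor on 1 of the 6 arrays. Each of these calls was lost without any of 5 of the 6 arrays. The limma adjusted p then reached 0.164 for the miR-619 precursor, which passed without POL6326 array 2, and 0.0779 for miR-34c-3p, which passed without POL6326 array 3. With median centring over all probes both calls were lost (adjusted p = 0.0639 and 0.0649).

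The third fall was partly at the floor. MiR-30c-1* read 5.18 on POL6326 array 2 and was at the floor on the other 2 POL6326 arrays, against 7.19, 7.01 and 8.08 on the SDF-1α arrays. It was therefore above the floor on all arrays of SDF-1α and on 1 of POL6326, although the POL6326 arrays had the lower detection limits, and its value on SDF-1α array 1 equalled that array's limit. The fitted difference of -2.81 (SE 0.73, limma adjusted p = 0.0373) depends on where the floor lies, and the call was lost without any of the 6 arrays (adjusted p at most 0.128). MiR-30c-2*, with the same seed, was above the floor on 1 POL6326 array (5.19) and on 0 of the SDF-1α arrays.

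Several measured probes differed by more than the miR-34c-3p probe without passing the threshold. MiR-572, with the most negative measured difference, read 9.54, 9.20 and 8.93 with POL6326 and 11.36, 11.41 and 11.28 with SDF-1α. Its groups lay far apart at 1 h, and its difference was -2.13 (SE 0.61, limma adjusted p = 0.0651). When the 182 measured probes were fitted on the 6 arrays alone, it was the single probe to pass (adjusted p = 0.00178, 1 of 182, 0.549%). MiR-496, also of the DLK1-DIO3 region, read 11.58, 12.99 and 13.13 with POL6326 and 9.98, 11.38 and 10.19 with SDF-1α, without overlap (difference 2.05, SE 0.60, limma adjusted p = 0.0697).

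MiR-24, which blood cells raise as they mature, read 9.89, 9.24 and 8.28 with POL6326 and 10.19, 10.42 and 10.20 with SDF-1α, without overlap (difference -1.13, SE 0.34, limma adjusted p = 0.0785). MiR-551a differed by -1.19 (adjusted p = 0.0803) and miR-485-3p by -1.35 (adjusted p = 0.158), both without overlap. With values raised to the common limit these differences were -0.41 and -0.30, and that of miR-24 was -1.13. MiR-504 (1.19, adjusted p = 0.491) and miR-566 precursor (1.06, adjusted p = 0.445) were uneven among the POL6326 arrays and overlapped, and the mature miR-566 differed by 1.15 (adjusted p = 0.235). The rest of the 10 largest positive differences were those of miR-638 (0.83), miR-625* (0.81), miR-92a (0.79) and miR-618 (0.76), and the rest of the 10 largest negative ones were those of the miR-206 precursor (-0.97), miR-424 (-0.94), miR-560 (-0.92), miR-92b* (-0.91) and miR-181a-2* (-0.90). None of these 9 passed the threshold (limma adjusted p from 0.131 to 0.346). With values raised to the common limit, the miR-206 precursor differed by -0.49 and miR-424 by -0.08. MiR-560, miR-92b* and miR-181a-2* differed there by -0.92, -0.89 and -0.90.

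The 34 probes with only the SDF-1α arrays at the floor have no measured SDF-1α level. Their size was bounded by the POL6326 mean against the mean SDF-1α detection limit of 7.16, and where that mean lay under the limit no size can be given. The bound exceeded 1-fold for 15 probes, 13 of which passed the threshold, and the other 19 lay under the limit. The limma adjusted p-values of these 34 probes come from values with SDF-1α at the floor. They test the distance to the floor, not the bound. Every POL6326 value stood above the highest SDF-1α limit for 9 of the 34.

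**Figure D3:**
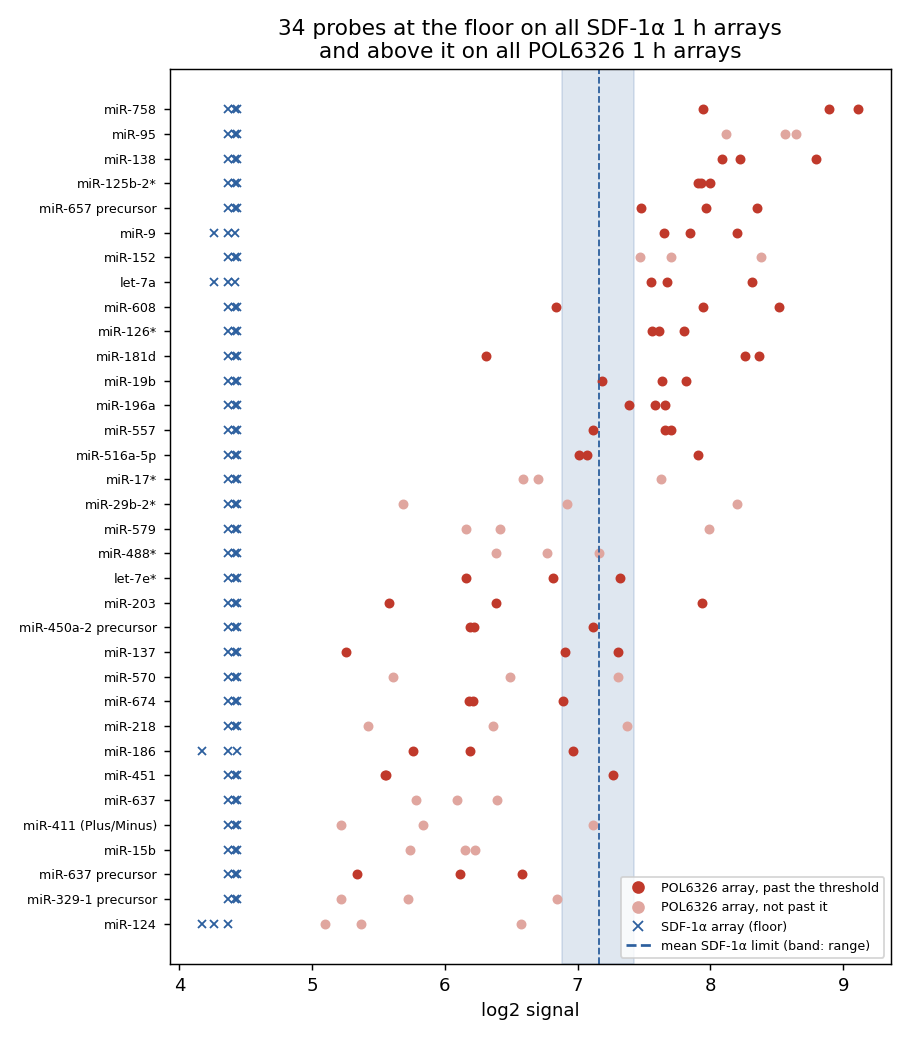
Log2 signal of the 34 probes above the floor on all POL6326 arrays and at it on all SDF-1α arrays, sorted by their POL6326 mean. Circles are POL6326 arrays (dark red past the threshold, pale red not), crosses are SDF-1α arrays at the floor, and the blue band and dashed line give the range (6.88 to 7.42) and mean (7.16) of the SDF-1α detection limits. The 15 probes from miR-758 to miR-516a-5p have means right of the dashed line.

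MiR-758, which in other cells lowers the cholesterol exporter ABCA1, had the largest bound. It read 7.94, 8.89 and 9.11 with POL6326 and was at the floor on all 3 SDF-1α arrays. All POL6326 values lay above the SDF-1α limits, so the signal was at least 2.80-fold higher with POL6326. The limma adjusted p was 5.44e-08 against the floor and 0.0225 with values raised to the common limit.

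MiR-138 read 8.22, 8.79 and 8.09 with POL6326, at least 2.31-fold above SDF-1α (limma adjusted p = 0.044), and the call was lost without any of the 6 arrays (adjusted p at most 0.135), with a common limit (0.199), with depth as a covariate (0.124), with centring on the probes above the floor on all 27 arrays (0.05), and when its 2 probes were averaged (1.88, adjusted p = 0.0589). MiR-125b-2*, the less abundant arm beside miR-125b, a miRNA that can drive leukaemia in mice, was the most even: 7.99, 7.91 and 7.93 with POL6326, at least 1.72-fold higher (adjusted p = 5.44e-08). The main arm miR-125b was at the floor on all POL6326 arrays and above it on 1 SDF-1α array (6.88, that array's limit).

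The precursor of miR-657 (98 bases, chr17:81125276-81125373, minus strand) read 8.35, 7.48 and 7.97 with POL6326, at least 1.70-fold higher (limma adjusted p = 0.00378). Its mature strand was measured on all arrays at 9.14, 9.18 and 8.82 with POL6326 and 8.58, 9.01 and 9.29 with SDF-1α, and these overlapped (difference 0.08, adjusted p = 0.865). MiR-9, a miRNA of neurons that NF-kB also induces in monocytes, read 7.65, 7.85 and 8.20 with POL6326, at least 1.66-fold higher (adjusted p = 0.00952). Its partner miR-9* was at or under the floor on all 6 arrays.

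Another 4 calls rested on POL6326 values that straddled the SDF-1α limits or cleared them by little. MiR-608 read 6.84, 7.94 and 8.51 with POL6326 (at least 1.52-fold higher, limma adjusted p = 0.00777), with array 1 under the SDF-1α limits. MiR-126*, of the hairpin within the endothelial gene EGFL7, read 7.56, 7.61 and 7.80 with POL6326 (at least 1.41-fold, adjusted p = 0.0181), while miR-126 was at or under the floor on all 6 arrays. Its call was lost without SDF-1α array 2 or 3 (adjusted p at most 0.0603). MiR-557 read 7.11, 7.66 and 7.71 with POL6326 (at least 1.26-fold, adjusted p = 1.49e-05), and miR-516a-5p, of the placental cluster on chromosome 19, read 7.07, 7.01 and 7.91 (at least 1.12-fold, adjusted p = 0.0284), a call lost without any of 5 of the 6 arrays (adjusted p at most 0.106). MiR-95 (8.56, 8.12 and 8.64 with POL6326, at least 2.42-fold) and miR-152 (7.71, 7.47 and 8.38, at least 1.61-fold), which targets the DNA methyltransferase DNMT1, cleared the limits on all arrays but did not pass (adjusted p = 0.0785 and 0.137).

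Another 3 calls concerned 1 member of a seed family whose other members did not pass. MiR-181d read 6.31, 8.37 and 8.26 with POL6326, at least 1.40-fold higher (limma adjusted p = 0.0284), with array 1 far below the other 2. MiR-181c, its neighbour on chromosome 19 (chr19:13874725-13874746 and chr19:13874910-13874932, plus strand), read 7.80, 7.74 and 8.39 with POL6326 and was above the floor on 1 SDF-1α array (7.10), while miR-181b was above the floor on POL6326 array 1 alone. MiR-19b, of the growth-promoting miR-17 cluster, read 7.19, 7.64 and 7.82 with POL6326, at least 1.30-fold higher (adjusted p = 0.0253), and miR-19a was at the floor on all 6 arrays. MiR-196a, encoded among the HOX genes, read 7.58, 7.39 and 7.66 with POL6326, at least 1.30-fold higher (adjusted p = 0.0284), and miR-196b was above the floor on 1 POL6326 array (5.11). The difference between family members was not tested. Each of these 3 calls was lost without 5 or all 6 of the arrays, with an adjusted p of at most 0.115. With values raised to the common limit, 8 of the 13 bounded calls were lost (let-7a, miR-126*, miR-138, miR-196a, miR-19b, miR-516a-5p, miR-557 and miR-608). For miR-557 the limma adjusted p was then 0.747. The others passed there (limma adjusted p = 0.000186 for miR-125b-2*, 0.0169 for the miR-657 precursor, 0.0225 for miR-758, 0.0387 for miR-181d and 0.0408 for miR-9).

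A further 8 calls were higher with POL6326 although their POL6326 means lay under the SDF-1α limit, so no size can be given and the same level on an SDF-1α array could have gone unseen. They were let-7e*, miR-203 (of skin), the precursors of miR-450a-2 and miR-637, miR-137 (of neurons), miR-674, miR-186 and miR-451 (of red cells). MiR-451 read 5.56, 7.27 and 5.55 with POL6326, and miR-186 read 6.19, 5.76 and 6.96, values that lie mostly under the SDF-1α limits of 6.88 to 7.42. Of the 8, miR-186 was called without each of the 6 arrays in turn, and the other 7 were lost without at least 3 of them.

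Let-7a read 7.67, 8.32 and 7.55 with POL6326 and was at or under the floor on the SDF-1α arrays. All POL6326 values cleared the SDF-1α limits, which gives a signal at least 1.60-fold higher with POL6326 (limma adjusted p = 0.0199). The fitted difference of 3.50 includes the distance from the limit down to the floor, and with values raised to the common limit it was 0.42 (adjusted p = 0.395). The call was lost without SDF-1α array 2 (adjusted p = 0.0603), SDF-1α array 3 (0.0595) or POL6326 array 2 (0.064).

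Let-7a has no measured difference to set against those of its relatives that were measured on all 6 arrays. With values raised to the common limit, let-7a differed by 0.42, let-7i by 0.38, let-7b by 0.29, let-7d by 0.03 and let-7e by -0.17. Differences between these members were not tested. Let-7b read 9.71, 9.76 and 9.92 with POL6326 and 9.58, 9.50 and 9.44 with SDF-1α, and let-7i read 8.90, 8.86 and 8.87 with POL6326 and 8.60, 8.38 and 8.50 with SDF-1α. In both the POL6326 arrays stood above the SDF-1α arrays without overlap, by 0.29 (SE 0.20, limma adjusted p = 0.417) and 0.38 (SE 0.23, adjusted p = 0.329). Let-7d (0.03, SE 0.45) and let-7e (-0.17, SE 0.18) overlapped.

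The other members depended on the floor. Let-7c read 8.01, 8.22 and 8.32 with POL6326, and on the SDF-1α arrays it was at the floor on array 1 and read 7.71 and 8.09 on arrays 2 and 3. Let-7g read 7.76, 8.03 and 8.17 with POL6326, and 8.08 on SDF-1α array 3 with the other 2 at the floor. Let-7f was above the floor on 2 POL6326 arrays (7.30 and 6.27) and on 0 SDF-1α arrays, and miR-98 on 1 POL6326 array (5.30). Of the 17 probes of the family, star strands and precursors included, 2 passed (let-7a and let-7e*), 15 did not, and the 5 measured on all arrays had a median difference of 0.24, against -0.09 for all 182.

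**Figure D4:**
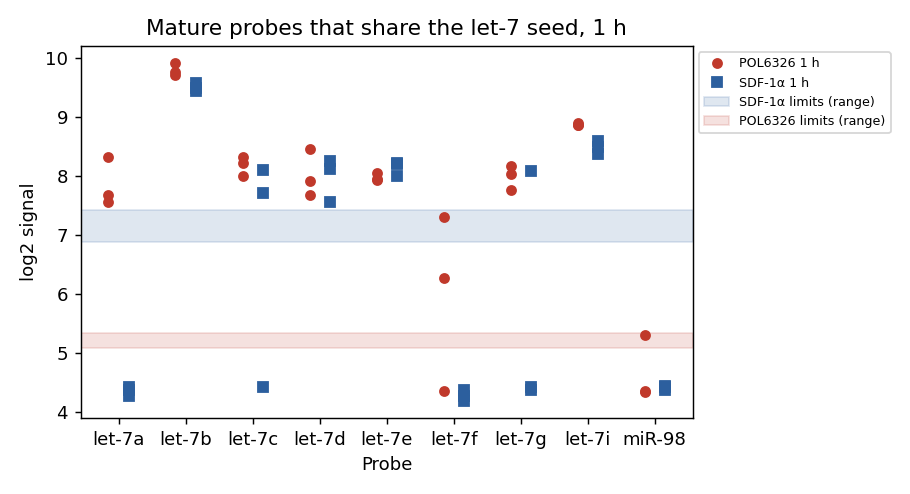
Log2 signal of the 9 mature probes that share the let-7 seed, with 1 point per array (POL6326 red circles on the left of each pair, SDF-1α blue squares on the right). The bands are the detection limits (SDF-1α 6.88 to 7.42, POL6326 5.09 to 5.33), and points near 4.4 are at the floor. Let-7a lies above the SDF-1α band with POL6326 and at or under the floor with SDF-1α, while let-7b, let-7d, let-7e and let-7i were measured on all 6.

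The miRNA groups chosen for this cell type showed few members past the threshold, read against 3.1% higher and 0.388% lower over all probes. In the miR-17 cluster and its paralogues, known for promoting growth, 1 of 27 probes passed (miR-19b). Of its 12 measured probes 8 were higher and 4 lower with POL6326 (median 0.22). MiR-20a read 9.60, 8.95 and 8.99 with POL6326 and 8.71, 8.50 and 8.65 with SDF-1α, without overlap. MiR-106b, of the related cluster on chromosome 7, stood the other way, at 7.38, 7.64 and 7.61 with POL6326 and 8.23, 8.67 and 8.15 with SDF-1α (difference -0.81, limma adjusted p = 0.0697). None of the measured probes of these clusters passed the threshold.

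In the family of miR-15 and miR-16, known for repressing BCL2, 0 of 13 probes passed. Of its 4 measured probes 3 had lower values with POL6326 without overlap, as had 20.33% of the 182 measured probes. These were miR-15a (-0.56), miR-16 (-0.57) and miR-424 (-0.94), and miR-497 was higher by 0.23. With values raised to the common limit, miR-15a differed by -0.29, miR-16 by -0.57, miR-424 by -0.08 and miR-497 by 0.23. Of 15 myeloid probes 0 passed, with a median of -0.20 over the 6 measured, where miR-24 was lowest and miR-23a highest (0.52). Among 81 probes of the DLK1-DIO3 region 2 were higher, miR-136* and miR-758, and 0 lower. Its 17 measured probes ranged from -1.35 (miR-485-3p) to 2.45 (miR-136*) with a median of 0.08, 10 of them positive and 7 negative.

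The remaining groups had between 0 and 4 members past the threshold. The NF-kB-linked list had 2 of 15 higher (miR-125b-2* and miR-9), with miR-146a above the floor on 2 POL6326 arrays (5.30 and 8.03) and on 0 SDF-1α arrays. The stem-cell and leukaemia-linked list had 2 of 20 higher (miR-125b-2* and miR-126*), the HOX-embedded list 1 of 11 (miR-196a), the miR-181 family 1 of 9 (miR-181d) and the C19MC cluster 1 of 46 (miR-516a-5p). The miR-34 and p53-linked list had 1 of 18 lower (miR-34c-3p), the miR-30 family 1 of 11 lower (miR-30c-1*) and the miR-29 family 0 of 7. Medians over all members of the lists that pass through the floor have no meaning as sizes, since the floor alone differed by -0.07.

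Lists for other tissues held some of the calls, mostly at low signal. The neural list had 4 of 16 higher (miR-9, miR-137, miR-138 and the miR-138-1* probe marked Plus/Minus), against 3.1% of all probes. The unmarked miR-138-1* probe is also in the list and did not pass. The 4 measured probes of the list had a median difference of -0.10, 2 positive and 2 negative. In this list 10 probes were above the floor on all POL6326 arrays and 4 on all SDF-1α arrays. Such counts run the same way over all 774 probes, with 318 to 334 above the floor per POL6326 array and 210 to 241 per SDF-1α array. The summed linear signal of the list was 10714 to 11984 per array with POL6326 and 10120 to 12664 with SDF-1α, which overlap. The erythroid list had 1 of 5 higher (miR-451), with 2 members above the floor on all POL6326 arrays and 0 on all SDF-1α arrays, and a summed signal of 183 to 287 with POL6326 and 107 to 339 with SDF-1α. The epithelial list had 1 of 11 (miR-203) and the stromal and endothelial list 1 of 14 (miR-126*). The muscle (11 probes), liver (2) and pluripotent (16) lists had 0. Whether RNA of other cell types had a part in these calls was not tested.

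The control probes of the array were examined apart. The GAPDH probe averaged 10.18 with POL6326 and 8.76 with SDF-1α (difference 1.42, exact permutation p = 0.2), with overlap. The tRNA probe HSTRNL averaged 10.85 and HUMTRMI-No1 7.50 with POL6326, against 9.98 and 8.36 with SDF-1α. These 2 did not overlap and moved in opposite directions (0.87 and -0.86, exact permutation p = 0.1 each, the smallest possible). The largest control difference was that of HUMTRAB (1.60, exact permutation p = 0.4), which overlapped and was at the floor on at least 1 SDF-1α array. Control differences thus reached 1.60 in size with an array at the floor and 1.42 (GAPDH) without one. Those of the measured calls ran from 0.57 to 2.45.

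The 1 h differences were also set against those at the later times. Of the 24 probes higher with POL6326 at 1 h, 19 were also higher at 2 h, 14 at 4 h and 19 at 8 h. Of these, 7, 2 and 3 passed the threshold there. Over all probes 4.13%, 9.82% and 1.03% passed at those times, in either direction. The share of all probes with a higher value at those times was not computed, so the counts of signs do not show persistence. Of the 24, 21 had all SDF-1α arrays at the floor at 1 h. Of the 24, 8 passed at a later time, and 10 kept the sign at all 3. None of the 3 lower at 1 h passed later. Over the 182 measured probes the 1 h difference correlated with that at 2 h at 0.61, at 4 h at 0.32 and at 8 h at 0.38 (Pearson r across probes, which are not independent replicates; the arrays are separate but the probes and the normalisation are shared).

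For miR-136* the difference was 2.45 at 1 h, 2.71 at 2 h (limma adjusted p = 0.000766), 1.23 at 4 h (0.0959) and 2.60 at 8 h (0.00274). Untreated cells read 10.65, 10.86 and 10.04 at 0 h, with a mean between those of the groups at 1 h. The POL6326 mean at 1 h did not pass against them (0.80, adjusted p = 0.407) and the SDF-1α mean did (-1.66, adjusted p = 0.0435). MiR-425 likewise did not pass against untreated cells with POL6326 (-0.51, adjusted p = 0.548) and was lower with SDF-1α (-2.20, adjusted p = 0.000681), and its difference between treatments was 1.21 at 2 h, -0.05 at 4 h and -0.11 at 8 h. These 2 comparisons with untreated cells share the same 3 untreated arrays.

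The 1 h difference stood apart from its mean at 2, 4 and 8 h for 3 of the 774 probes (0.388%, limma, adjusted p under 0.05), all with an SDF-1α group at the floor at 1 h. MiR-758 was above the floor on all 24 arrays other than those of SDF-1α at 1 h, and all 24 also exceeded the highest SDF-1α limit of 7.42. No other probe showed that. Its untreated values were 8.98, 8.63 and 8.10, and at 2 h it read 8.88, 8.63 and 8.14 with POL6326 and 8.21, 8.21 and 8.75 with SDF-1α. The probe was thus at the floor at 1 h in SDF-1α cells, and at 2 h the difference was 0.16 (limma adjusted p = 0.995).

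MiR-557 was likewise above the floor on all 24 other arrays, at 7.27, 6.83 and 6.87 in untreated cells, but many of its values lay under 7.42, so the SDF-1α arrays at 1 h may have missed such levels. MiR-125b-2* differed: it was at or near the floor in untreated cells (4.64, 4.35 and 4.36), read 7.99, 7.91 and 7.93 with POL6326 at 1 h and 7.69, 7.71 and 7.54 at 2 h, and 4.76, 5.06 and 5.15 at 4 h. The POL6326 signal at 1 h was at least 4.92-fold higher than that of untreated cells (limma adjusted p = 1.24e-07), where 1 array was above its floor and the limits of the other 2 were 5.83 and 6.45. Against SDF-1α it was higher at 1, 2 and 8 h and lower at 4 h (-1.04, adjusted p = 0.0284).

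**Figure D5:**
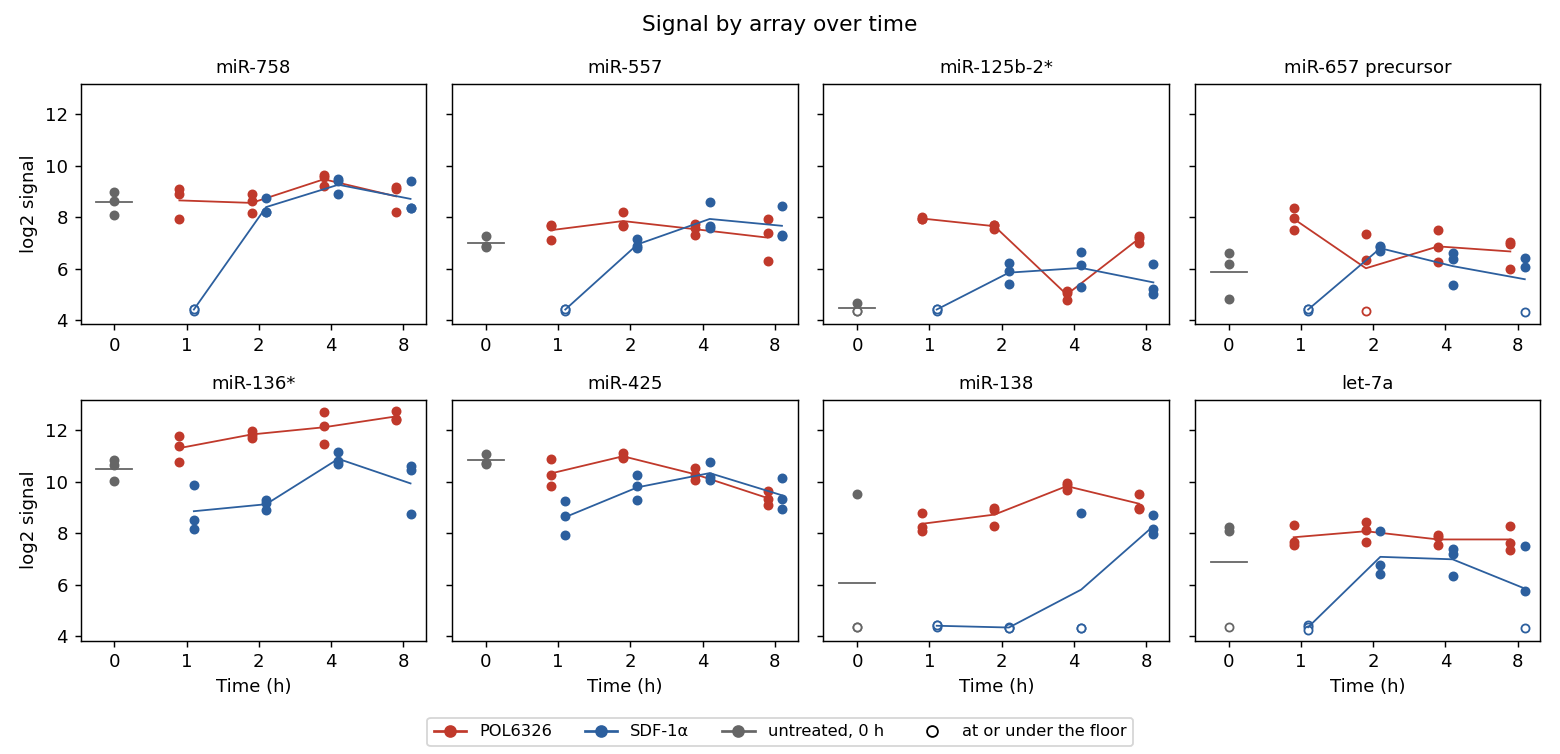
Log2 signal of 8 probes on each array, with POL6326 in red, SDF-1α in blue and untreated cells (0 h) in grey. The times 0, 1, 2, 4 and 8 h are evenly spaced, lines join the means, and open circles are at or under the floor. The SDF-1α points at 1 h are open for miR-758, miR-557, miR-125b-2*, the miR-657 precursor, miR-138 and let-7a, and filled for miR-136* and miR-425.

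With SDF-1α, miR-138 was at the floor on all arrays at 1 and 2 h, on 2 of 3 at 4 h and on 0 at 8 h (8.71, 7.96 and 8.16). With POL6326 it was above the floor on all 12 arrays, but in untreated cells it read 9.53 on array 1 and was at the floor on the other 2. Let-7a was at or under the floor on all 3 SDF-1α arrays at 1 h and on 1 at 8 h, and its difference at 2, 4 and 8 h was 1.00, 0.77 and 1.91, with no adjusted p under 0.409.

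Of the 27 calls, 9 passed without each of the 6 arrays in turn. Of these 9, 4 (miR-125b-2*, the miR-657 precursor, miR-758 and miR-9) also passed under each alternative that could give them a value. These 4 have no measured SDF-1α level at 1 h, so most alternatives again tested their distance to the floor. Passing those adds little, and the fits to measured probes could not include these 4. The common limit takes that distance out, with their SDF-1α values set to the limit. Their limma adjusted p there ran from 0.000186 to 0.0408. MiR-136* and miR-425, which were measured, passed under each alternative except fits that used the 6 arrays alone (limma adjusted p = 0.0822 for each over all probes).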

How the data were processed

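The deposited table holds log2 signals from the authors for 27 arrays in 9 groups of 3. The 774 human miRNA probes were tested, and the 10 control probes were set apart. The log base was inferred from the range of the values, and the scanner, background correction and normalization are not given in the labels or the table. All arrays share 1 maximum value (15.46). Per the labels' protocols, total RNA was reverse transcribed with a biotinylated primer and hybridised to a chip. No genome build is named, so positions are those of RefSeq (GRCh38.p14).

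The floor of an array was its most frequent value (tolerance 1e-04 on the log2 scale). The detection limit was the lowest value above it, and the number of probes above it stands for depth. On the 6 arrays of 1 h, 2910 values equalled the floor and 87 were lower. Values at the floor vary little, so SEs and p-values of probes there can be too small. A model with 1 mean per group was fitted to 27 arrays with limma 3.58.1 in R 4.3.3 (prior degrees of freedom 0.90), two-sided, Benjamini-Hochberg over 774 probes, threshold 0.05. Exact permutation tests used all 20 splits. Tables were handled in Python 3.11.15 with pandas 2.3.3. The fit was also run on simulated normal values with an equal spread for all probes and no floor. Such values cannot test calls that rest on the floor.

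The probes, the 21 lists and the comparisons were chosen with earlier results of these data known. Named are all probes past the threshold, the 10 largest measured differences each way, the let-7 probes, those whose 1 h difference departs from later times, and up to 4 per list with the smallest p. Partners on the same hairpin, relatives with the same seed, cell type markers and a few further list members were named after their values were seen. Alternatives were other centring, quantile normalization, filters on low probes, 1 common detection limit, raising values to the floor, averaging probes of 1 name, another prior, the 6 arrays alone, a replicate block and leaving out each array. Added after seeing the data were fits to probes above the floor on all 6 or all 27 arrays, and a fit with depth (probes above the floor) as a covariate.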

Additional observations from a re-analysis of the deposited data

Results flagged for a closer look

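In all, 3 probes had a POL6326 minus SDF-1α difference at 1 h that departed from its mean at 2, 4 and 8 h by a test of that departure (limma, Benjamini-Hochberg over 774 probes). The departure was 4.08 on the log2 scale for miR-758 (SE 0.39, adjusted p = 2.23e-06), 3.07 for miR-557 (adjusted p = 0.000135) and 2.71 for miR-125b-2* (adjusted p = 3.6e-05). None of the 3 was above the floor on an SDF-1α array of 1 h, so each size includes an unmeasured distance down to the floor. With 1 common detection limit, only 1 of the 3 still passed.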

How the results depend on the processing

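The 27 calls became 11 to 28 when each array was left out in turn, 1 (of 182) and 6 (of 174) when only probes above the floor on all 6 or all 27 arrays were fitted, and stayed within 1.5 times otherwise. Similar counts did not mean the same probes. Of the 27, 17 were among the 25 calls with the 6 arrays alone, 18 among the 32 with depth as a covariate and 10 among the 24 with the common limit. The share called higher was 88.89%, but 41.67% with 1 common detection limit. There the 34 probes with SDF-1α at the floor shrink by construction. Calls lower with POL6326 also went from 3 to 14 there, and these 14 were all measured on all 6 arrays. The 5 measured calls became 3 with median centring, 10 after removing probes that were at the floor on most arrays, 8 for the upper 50% of probes, 18 with the common limit, 3 with the 6 arrays alone, 1 for the 182 probes alone, 14 with depth as a covariate, and 2 to 6 leaving out each array. The 3 with the 6 arrays alone were all lower with POL6326 and held 1 of the 5, and the fit of the 182 probes alone kept 0 of the 5. Depth differs between the groups, so as a covariate it can remove part of a difference. The 3 departures of 1 h from later times became 20 with median centring, 5 with quantile normalization and 15 and 17 with the 2 filters. They became 5 with the common limit, 2 of them positive and 3 negative, and only 1 of the original 3 was among these. The count was 21 with the covariate and 4 to 7 leaving out each array (7 without POL6326 array 2). It was 0 among probes above the floor on all 27 arrays (limma, 15 at an unadjusted p under 0.05). Let-7a was 0.42 with the common limit and 2.66 with the covariate (adjusted p = 0.395 and 0.0582), and 3.26 to 3.64 leaving out each array. The excess of probes above the floor was 3.67 over the common limit, and 97.3 to 113 leaving out each array. Signs reversed for uncalled probes: let-7d near 0 (-0.17 without SDF-1α array 1, -0.18 without POL6326 array 1, and -0.18 to 0.21 leaving out each array), miR-138 marked Plus/Minus (1.88 averaged with its unmarked probe), miR-138-1* near 0 (-0.047 with quantile normalization, and -0.091 to 0.11 leaving out each array), miR-136 (0.011 with median centring, 0.26 with the covariate, and -0.19 to 0.062 leaving out each array), miR-657 (-0.11 to 0.25 leaving out each array), and, with the covariate, miR-191 (0.20), miR-23a (-0.14) and miR-504 (-0.11). The cause of these changes was not tested. The replicate numbers did not pair the arrays (correlations of same-numbered arrays 0.01, 0.23 and -0.02), and a replicate block gave 29 calls, 26 of them shared, without miR-138 (adjusted p = 0.0553). The high detection limits of the SDF-1α arrays limit every statement on dim probes.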
